A study of Arabidopsis thaliana with 12 samples.

Results

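The Aux/IAA repressors and the auxin response factors (ARFs) were followed as 44 named genes, IAA1 to IAA20, IAA26 to IAA34 and 15 ARF genes. A gene was taken from the probe sets that the array files assign to its locus alone, and 43 of the 44 had such a probe set (28 of 29 Aux/IAA genes and 15 ARF genes), out of 21010 genes measured in this way. IAA15 had none, and ARF2 had 2, of which the one with the higher mean was used. The samples were whole seedlings of Arabidopsis thaliana of the lines CCA1-34, which overexpresses the clock transcription factor CCA1 and has no circadian rhythm, and Columbia (Col), the wild type. All seedlings had been entrained for 4 days to 8 h of light and 16 h of darkness on sucrose medium, and were then kept under pulses of 160 min light and 320 min darkness. They were harvested in the dark, 120 min after lights-off, at 1240 min (late) or at 280 min (early) after dawn. The 4 groups, CCA1-34 late, CCA1-34 early, Col late and Col early, held 3 arrays each, 1 from seedlings of 5 days, 1 of 6 and 1 of 7, and every group mean below has n = 3. The series' design text states that seedlings elongated in the dark in every group but Col late. CCA1-34 is a single transgenic line, and the labels do not name the promoter of its transgene.

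Aux/IAA proteins are short-lived nuclear repressors that bind ARFs and bring the TOPLESS corepressors to auxin-responsive promoters. Auxin joins an Aux/IAA protein to a receptor of the TIR1/AFB family, the Aux/IAA protein is degraded, and the ARF is set free to activate or repress its targets. Many Aux/IAA genes are themselves switched on by auxin, so that their transcripts serve as a readout of the pathway and also close a feedback loop, and several of them respond to shade and darkness through the PIF transcription factors in elongating hypocotyls.

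Values are log2 RMA values as deposited, in which a difference of 1 is a doubling, and array medians lay between 4.01 and 4.12. CCA1 checked the labels: it read 8.89, 9.10 and 10.18 in CCA1-34 late and 8.46, 9.11 and 9.16 in CCA1-34 early arrays, against 3.71, 2.66 and 3.43 in Col late and 2.47, 4.21 and 6.37 in Col early arrays (in order of age). The lines did not overlap, and the mean difference was 5.34 (exact two-sided permutation test over the 12 arrays, p = 0.00216). Any gene whose lines separate fully in this way gives this p, so it adds nothing to the separation. The 7-day Col early array, at 6.37, had the highest CCA1 value among the Col arrays. A pair of early arrays stood apart in genes that follow the light: 7 light-induced genes averaged 6.96 in the 6-day CCA1-34 early array and 6.50 in the 7-day Col early array, against 4.35 to 6.23 in the other 10 arrays. A list of 8 darkness- and starvation-induced genes was lowest in the same arrays, at 4.48 and 4.72, against 5.00 to 6.34. They had been set apart in earlier work on these data that used IAA29 among its examples, so IAA29 is not independent of that choice. IAA6 and IAA19, among other members, also had the lowest value of their group in these arrays. Their p-values without these arrays are therefore not independent of the removal. The part of these arrays in the results was not tested, and for each of the 7 comparisons values without them are given as well. Of the whole-seedling check lists, 4 leaf photosynthesis markers averaged 12.13 to 12.53, 10 root markers 5.08 to 5.95 and 7 seed and embryo markers 4.67 to 6.86 over the 12 arrays. In whole seedlings, fewer cells that express a gene and less RNA per cell cannot be told apart.

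The members covered most of the range of the array. Of the 43 genes, 34 had a mean above the median probe set (4.08), among them all 15 ARFs and 19 Aux/IAA genes. IAA5, IAA10, IAA30, IAA31, IAA32, IAA33 and IAA34 lay below the array median on all 12 arrays. No filter on low values was applied, and values near the bottom of the scale carry little information about a change. The range of a gene's 4 group means had a median of 0.43 among the Aux/IAA genes and of 0.25 among the ARFs, whose widest range was 0.50. The SD within a group had medians of 0.26 and 0.24. It was larger in the genes of widest range: in CCA1-34 early and Col early it was 1.91 and 2.25 for IAA29 and 1.00 and 1.18 for IAA6. A range of group means grows with such a spread. CCA1-34 late gave the highest of the 4 group means for 19 of 43 members, against 21.5% of all probe sets, and Col late the lowest for 20, against 26.8%.

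**Figure D1:**
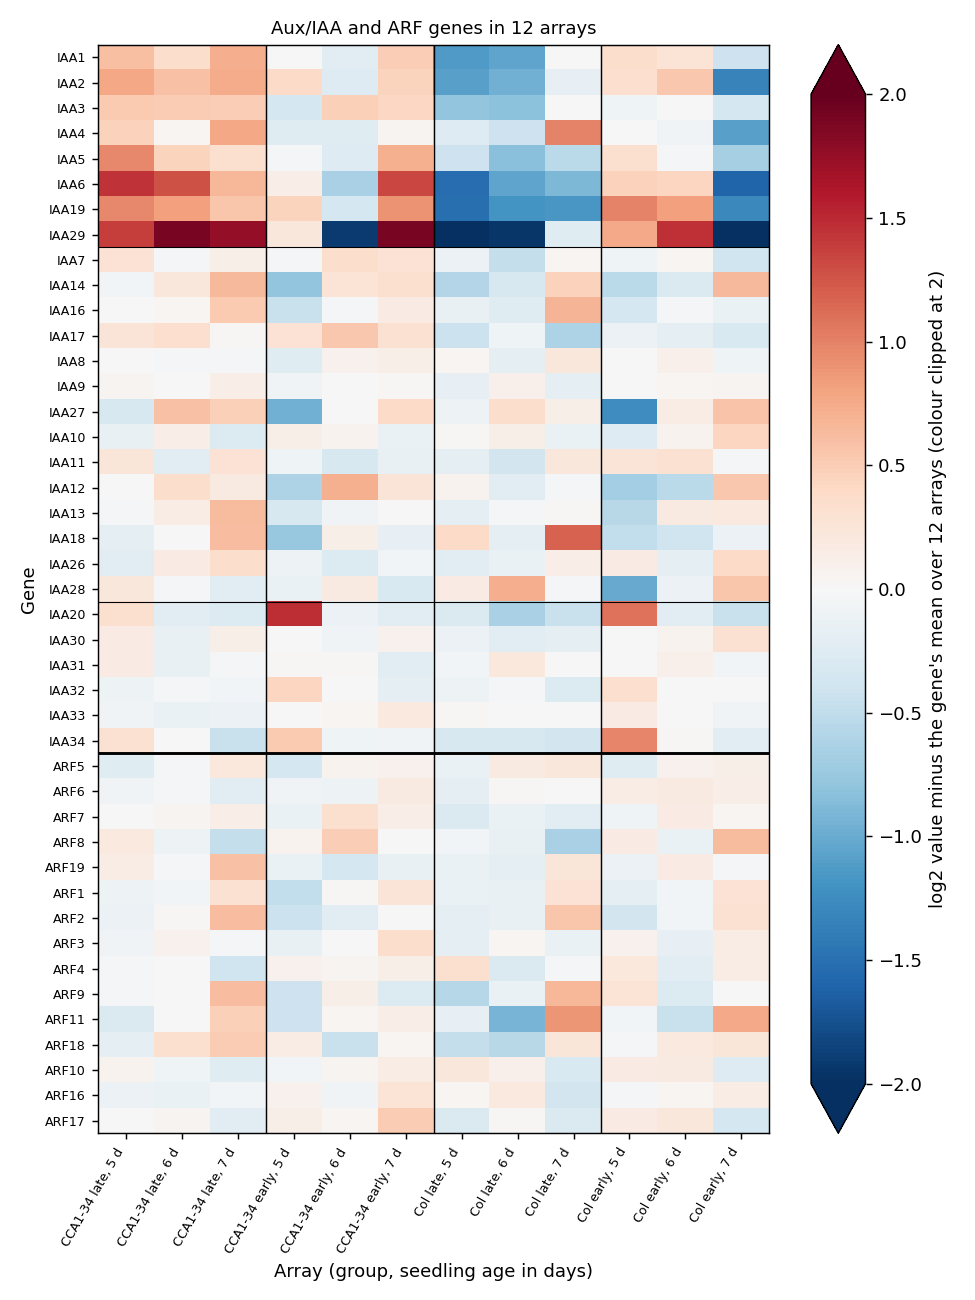
Each row is 1 of the 43 measured genes and each column 1 of the 12 arrays, and the colour gives the log2 value minus the gene's mean over 12 arrays, clipped at 2. The upper block, IAA1 to IAA6, IAA19 and IAA29, carries most of the colour: blue in the 5- and 6-day Col late arrays and in the 7-day Col early array, and red in the CCA1-34 late arrays, while the ARFs below the thick line are paler.

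The comparison of CCA1-34 with Col at the late time sets growing seedlings against seedlings of the same age that were not growing. The largest differences were those of IAA29, IAA6 and IAA19, which had higher means in CCA1-34 but did not pass after adjustment. IAA29 (AT4G32280), which is induced by shade and by PIF factors, read 7.54, 8.06 and 7.93 in CCA1-34 late arrays at 5, 6 and 7 days, against 3.64, 4.22 and 5.92 in Col late arrays. IAA19 (AT3G15540, MSG2), which acts with ARF7 in hypocotyl growth and bending, read 7.39, 7.27 and 7.00 in CCA1-34 late arrays, against 4.94, 5.24 and 5.27 in Col late arrays. IAA6 (AT1G52830, SHY1), known from a mutant altered in seedling light responses, read 5.61, 5.44 and 4.82 in CCA1-34 late arrays, against 2.63, 3.10 and 3.26 in Col late arrays. In each of these 3 genes every CCA1-34 array lay above every Col array. The differences were 3.25 for IAA29 (SE 1.14), 2.07 for IAA19 (SE 0.52) and 2.29 for IAA6 (SE 0.59), or 9.48-, 4.20- and 4.89-fold.

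Smaller differences of the same direction were seen in the group of IAA1 to IAA4. IAA2 (AT3G23030), whose promoter is widely used as an auxin reporter, read 8.60, 8.41 and 8.56 in CCA1-34 late arrays, against 6.73, 6.86 and 7.65 in Col late arrays. IAA1 (AT4G14560, AXR5) read 5.76, 5.51 and 5.88 in CCA1-34 late arrays, against 4.03, 4.10 and 5.15 in Col late arrays. IAA3 (AT1G04240, SHY2), which links auxin to light and cytokinin responses, was nearly level in CCA1-34 late arrays at 6.32, 6.30 and 6.29, against 5.02, 4.98 and 5.80 in Col late arrays. None of these groups overlapped, and the 7-day Col late array was the highest Col late array for all 3 genes. IAA4 (AT5G43700) differed from them, with 6.44, 6.01 and 6.76 in CCA1-34 late arrays and 5.72, 5.57 and 6.97 in Col late arrays, which overlapped. IAA5 (AT1G15580), an auxin-inducible repressor close to IAA6 and IAA19, stayed below the array median at 4.04, 3.51 and 3.40 in CCA1-34 late arrays, against 2.66, 2.24 and 2.54 in Col late arrays, without overlap.

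After adjustment over all 22746 probe sets, 0 of 43 members passed at a threshold of 0.05 in this comparison (limma, Benjamini-Hochberg), where 2 probe sets, 0.00879% of all, passed, or 6 with day in the fit as a block. The lowest adjusted p among members was 0.566, shared by IAA1, IAA3 and IAA17, and IAA19 had 0.580. At an unadjusted p under 0.05 there were 9 members, IAA1, IAA2, IAA3, IAA5, IAA6, IAA17, IAA19, IAA29 and ARF7, all higher in CCA1-34 (20.9%), against 3.79% of all probe sets in either direction and 2.35% higher. Of 43 members, 32 had a higher mean in CCA1-34 late than in Col late, with a median difference of 0.17, against 48.5% higher and a median of -0.01 over all probe sets. The arrays did not overlap in 10 members that were higher in CCA1-34, against 5.45% of all probe sets, and in 1 that was lower, IAA33 at 2.07, 2.01 and 2.03 against 2.17, 2.16 and 2.13, against 4.78%.

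The same comparison within each age, counted after the values had been seen, is a description. CCA1-34 late was higher than Col late at 5, at 6 and at 7 days in 22 of 43 members (51.2%), against 14.2% of all probe sets, and lower on each of the 3 days in 2, IAA33 and ARF5, against 13.8%. The differences at 5, 6 and 7 days were 2.46, 2.03 and 1.73 for IAA19, 2.97, 2.34 and 1.56 for IAA6, 1.73, 1.41 and 0.73 for IAA1 and 1.87, 1.55 and 0.91 for IAA2. They were smallest at 7 days in all 4 genes, and also in IAA29, at 3.90, 3.84 and 2.0. Genes read from the same arrays are not independent of each other.

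Which members passed here depended on the arrays kept in the fit and on their weights. With equal weights, the early arrays enter this comparison only through the estimate of the spread that all groups share. Without both early arrays that stood apart, the differences were the same. The SE was then 0.16 for IAA19 and 0.32 for IAA6, against 0.52 and 0.59 with all arrays. IAA19 had an adjusted p of 0.00346 and IAA6 of 0.0488 by limma, 2 of 43 members among 30 probe sets. Without the 7-day Col early array alone, IAA19 had 0.0475. Over 21 alternatives the adjusted p of IAA19 ranged from 0.00346 to 1.0 and was under 0.05 in 4, and that of IAA6 ranged from 0.0217 to 1.0 and was under 0.05 in 2. With arrays weighted by how closely they followed the fit, 6 members passed: IAA1, IAA2, IAA3, IAA6, IAA17 and IAA19, among 120 probe sets. The weights were estimated from these same values, so p-values with array weights are not independent of them.

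**Figure D2:**
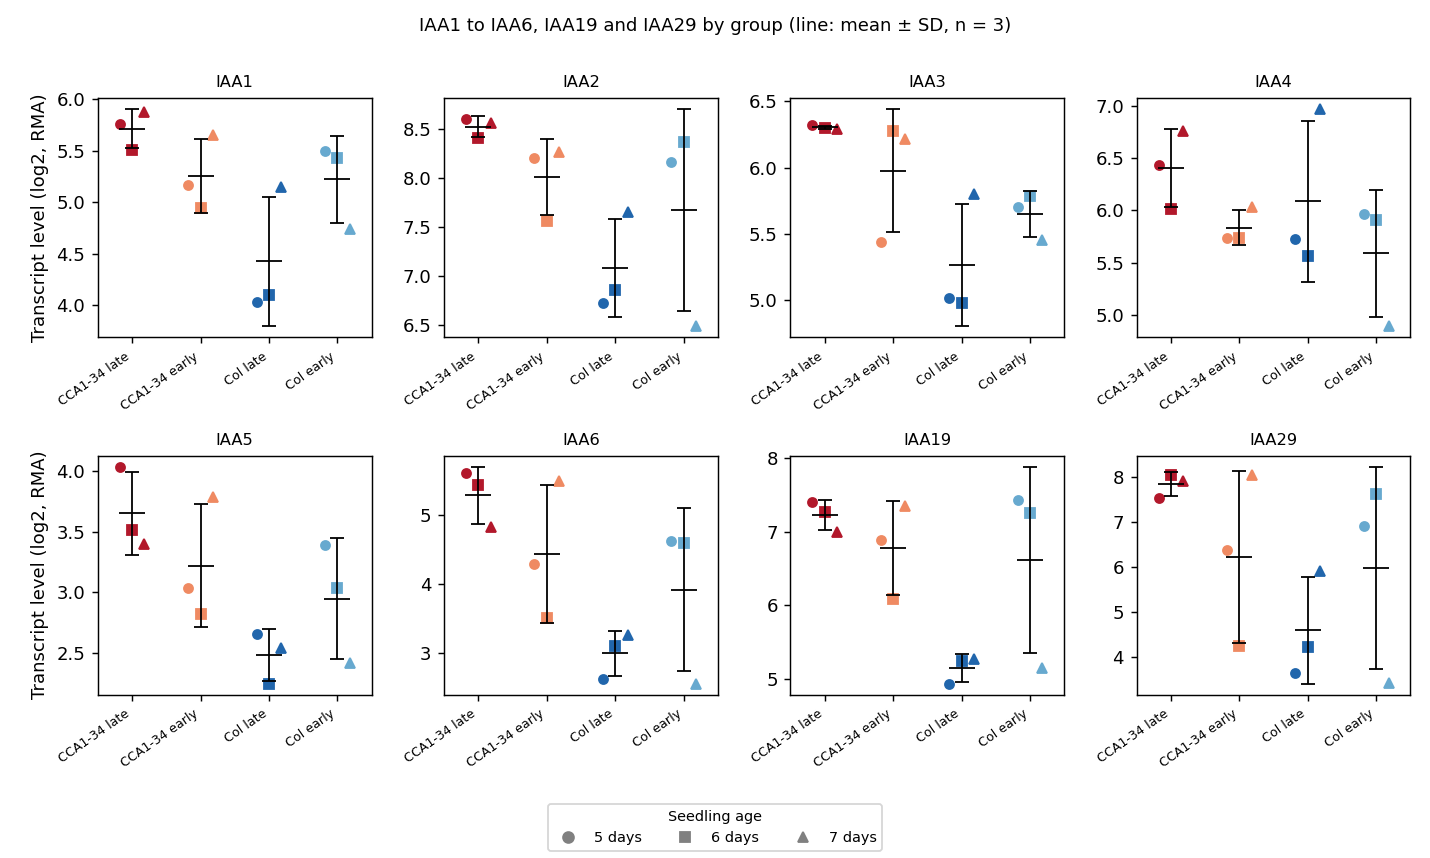
Each panel shows the log2 level of 1 gene in the 12 arrays, by group, with the symbol giving the seedling age and the black line the group mean ± SD (n = 3). CCA1-34 late arrays lie above all Col late arrays in every panel but that of IAA4, and the 7-day Col early array is the lowest Col early array in all 8.

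**Figure D3:**
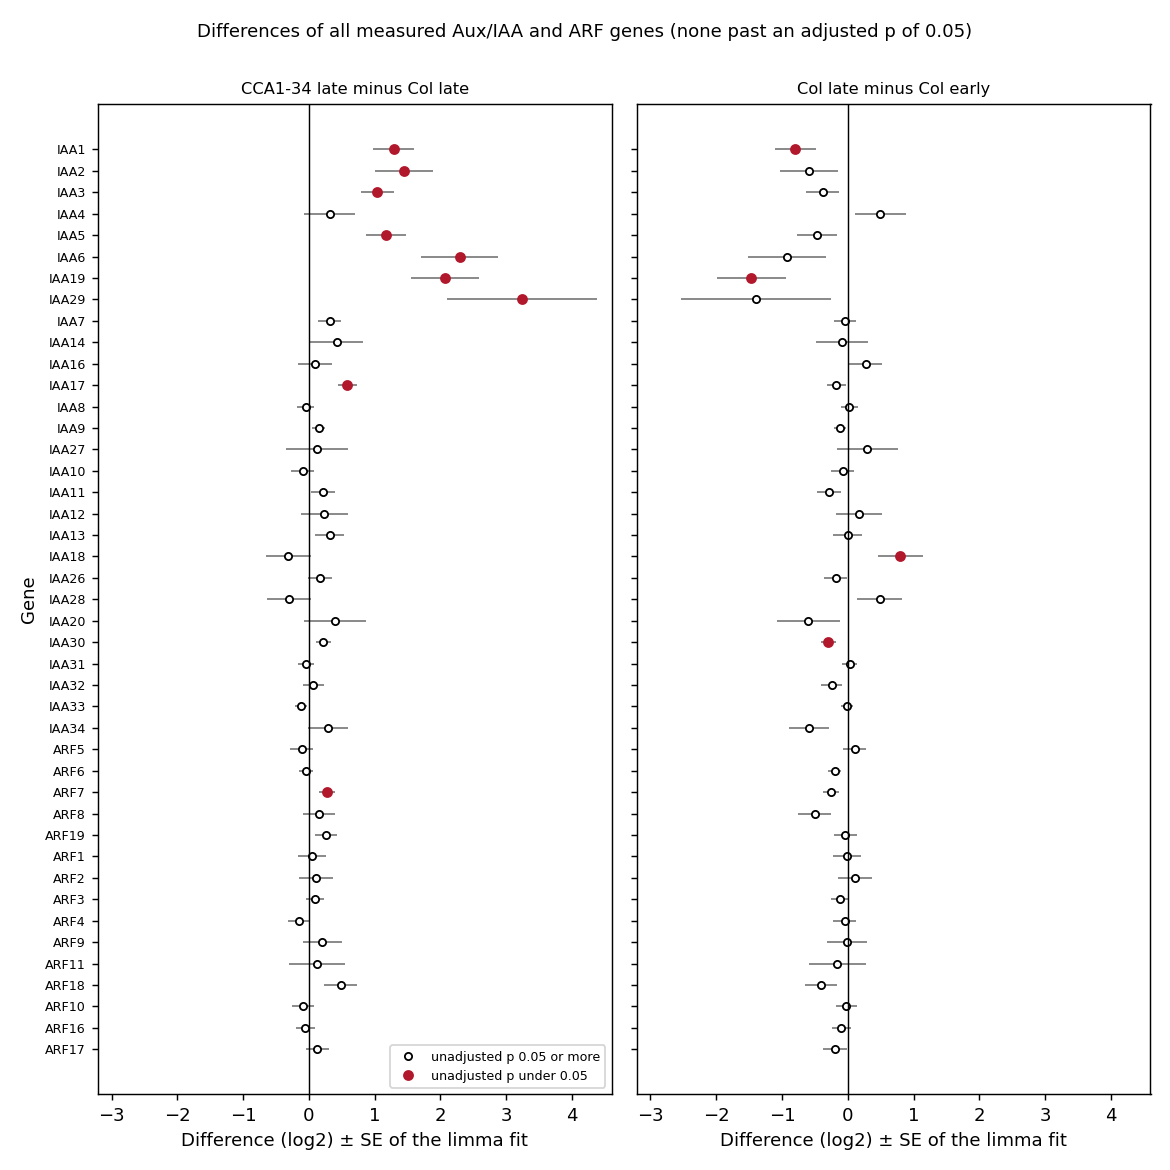
Points are the differences of group means on the log2 scale for the 43 genes, with bars of 1 SE of the limma fit, for CCA1-34 late minus Col late on the left and Col late minus Col early on the right. Filled points had an unadjusted p under 0.05, 9 on the left and 4 on the right, and 0 passed an adjusted p of 0.05.

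The comparison of late with early in Col asks which genes differ between the non-growing and the growing time in the wild type. IAA19 read 4.94, 5.24 and 5.27 in Col late arrays, against 7.43, 7.26 and 5.16 in Col early arrays. IAA29 read 3.64, 4.22 and 5.92 in Col late arrays, against 6.92, 7.62 and 3.42 in Col early arrays. Late was far below early at 5 and 6 days, and the order turned round at 7 days, where the early array was the low one. Late minus early was -2.49, -2.02 and 0.11 for IAA19 and -3.28, -3.40 and 2.5 for IAA29 at 5, 6 and 7 days. The same turn was seen in IAA1 to IAA6: at 7 days late exceeded early by 0.41 in IAA1, 1.16 in IAA2, 0.35 in IAA3, 2.07 in IAA4, 0.12 in IAA5 and 0.70 in IAA6, and at 5 and 6 days late was lower in all 6 genes. In all, 14 of 43 members were lower late than early at 5 and 6 days and higher at 7 days (32.6%), against 15.7% of all probe sets, and 5 members had the reverse course, against 13.3%. Late was lower on each of the 3 days in 8 members, IAA14, IAA30, IAA32, IAA34, ARF6, ARF7, ARF8 and ARF18, against 13.1% of all probe sets, and higher on each day in IAA18 and ARF5, against 11.7%. These counts by day were also made after the values had been seen.

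In this comparison 0 members passed the adjusted threshold, where 1 probe set, 0.0044% of all, passed. At an unadjusted p under 0.05, IAA19 (difference -1.46, SE 0.52), IAA1 (-0.80) and IAA30 (-0.30) were lower and IAA18 (0.80) was higher in Col late, each with an adjusted p of 0.900 by limma. These 4 of 43 members (9.30%) stand against 5.41% of all probe sets, 2.74% higher and 2.66% lower. Arrays did not overlap in 5 members, all lower in Col late (IAA30, IAA32, IAA34, ARF6 and ARF7), against 5.14% of all probe sets. Late means were higher in 10 of 43 members and lower in 33, with a median of -0.12, against 47.4% higher and a median of -0.01 over all probe sets. Of the 15 ARFs 13 were lower, and the largest ARF difference was -0.50, in ARF8. IAA18, known from a gain-of-function mutant with altered embryos and lateral roots, read 6.18, 5.61 and 6.97 in Col late arrays, against 5.30, 5.39 and 5.68 in Col early arrays, with overlap.

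Without both early arrays that stood apart, Col late minus Col early was -2.19 for IAA19 (adjusted p 0.00976 by limma). IAA19 was low in both of the arrays left out, so this p is not independent of their removal. Over 21 alternatives the adjusted p of IAA19 ranged from 0.00976 to 1.0 and passed in that setting alone. The members with an unadjusted p under 0.05 then numbered 11, with 8 lower (IAA1, IAA2, IAA5, IAA6, IAA19, IAA29, IAA34 and ARF17) and 3 higher (IAA12, IAA18 and IAA28), against 7.27% of all probe sets. Leaving out the 7-day Col early array alone gave 10 members, and leaving out the 5-day Col late array gave 1, while leaving out the 5-day or the 6-day Col early array gave 2 each. The transcript of PIF4, a bHLH factor that activates IAA19 and IAA29, was not low in the 7-day Col early array. PIF4 protein was not measured, and the part of PIF4 in the values of these genes was not tested. The PIF4 transcript read 2.91, 3.58 and 5.23 in Col late arrays, against 6.52, 6.27 and 6.49 in Col early arrays.

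CCA1-34 seedlings were growing at both times, and 0 of 43 members passed the adjusted threshold between late and early, against 1 at an unadjusted p under 0.05 by limma. IAA19 read 7.39, 7.27 and 7.00 in late arrays, against 6.89, 6.09 and 7.34 in early arrays, and IAA29 read 7.54, 8.06 and 7.93 in late arrays, against 6.38, 4.24 and 8.05 in early arrays. The low early value was that of the 6-day array in both genes. ARF19 (AT1G19220), an activating ARF that works with ARF7 in lateral root formation, read 4.50, 4.31 and 4.94 in late arrays, against 4.22, 4.00 and 4.20 in early arrays, without overlap. It was the single member at an unadjusted p under 0.05 (difference 0.44, SE 0.17, adjusted p 1.00 by limma), against 1.68% of all probe sets, and 0 members and 0% of probe sets passed the adjusted threshold. With the day as a block there were 3 such members. Leaving out the 7-day late array or the 6-day early array gave 0, leaving out the 6-day late array or the 5-day Col early array gave 2, and leaving out the 7-day early array gave 3. ARF19 differed by 0.37 (unadjusted p 0.10) without both early arrays that stood apart, and then ARF17 was the single member at an unadjusted p under 0.05 (difference -0.37, unadjusted p 0.0470, adjusted p 1.0 by limma), against 2.01% of all probe sets. IAA2, IAA3 and ARF19 were higher and IAA33 and ARF4 lower in late arrays without overlap, against 3.02% higher and 3.94% lower of all probe sets. On each of the 3 days late was higher in 10 members, IAA1 to IAA4 among them, against 12.5% of all probe sets, and lower in 5, against 13.1%. IAA13, which acts beside IAA12 in the embryonic root, read 6.95, 7.12 and 7.61 in late arrays, against 6.65, 6.90 and 6.99 in early arrays, with overlap.

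The interaction asks whether the difference of late minus early itself differs between CCA1-34 and Col. It was 1.91 for IAA19 (SE 0.73), 1.26 for IAA1 (SE 0.44) and 0.58 for IAA11 (SE 0.25), the 3 members at an unadjusted p under 0.05, against 2.04% of all probe sets in either direction and 1.12% positive. None passed after adjustment (adjusted p 1.00 for each by limma, 0% of probe sets). IAA11 read 4.81, 4.36 and 4.86 in CCA1-34 late and 4.49, 4.25 and 4.42 in CCA1-34 early arrays, against 4.38, 4.20 and 4.80 in Col late and 4.83, 4.87 and 4.54 in Col early arrays. IAA29 had the largest estimate of the 43, at 3.01, and also the widest error (SE 1.61, unadjusted p 0.0898). Without both early arrays that stood apart, 7 members had an unadjusted p under 0.05, against 2.54% of all probe sets, and all were positive: IAA1, IAA2, IAA3, IAA5, IAA6, IAA19 and IAA29. IAA19 was nearest to the adjusted threshold, at 2.30 with an adjusted p of 0.0844 (range over 20 alternatives 0.0844 to 1.0). Single arrays moved the count of 3 as well: it was 7 without the 7-day Col early array, 6 without the 7-day Col late array, 5 without the 6-day CCA1-34 late or the 7-day CCA1-34 early array, and 1 without the 5-day Col late array.

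At the early time both lines grew in darkness. IAA1 to IAA6, IAA19 and IAA29 all had higher means in CCA1-34 early than in Col early, and none of the 8 had an unadjusted p under 0.05. The difference was 0.51 for IAA6 (SE 0.59), 0.34 for IAA2 (SE 0.44), 0.33 for IAA3 (SE 0.25), 0.27 for IAA5 (SE 0.30), 0.24 for IAA4 (SE 0.38), 0.24 for IAA29 (SE 1.14), 0.16 for IAA19 (SE 0.52) and 0.03 for IAA1 (SE 0.31), each with an adjusted p of 1.00 by limma. The direction was turned in 5 of them without both early arrays that stood apart, at -0.23 for IAA19, -0.06 for IAA4, -0.05 for IAA1, -0.05 for IAA29 and -0.03 for IAA2, and it was 0.29 for IAA6, 0.20 for IAA5 and 0.08 for IAA3. The day-by-day differences of IAA29, at -0.54, -3.38 and 4.63, ran in opposite directions, and the low array was that of 6 days in CCA1-34 and of 7 days in Col. A single member had an unadjusted p under 0.05, IAA17, against 3.57% of all probe sets, and 0 passed after adjustment, against 0.0044%. That count was 2 without the 6-day CCA1-34 late, 7-day CCA1-34 early, 6-day Col late or 7-day Col late array, and 3 without the 5-day CCA1-34 early, 6-day Col early or 7-day Col early array. It was again IAA17 alone without both early arrays that stood apart (0.45, unadjusted p 0.0318), against 2.96%. IAA17 was higher in CCA1-34 early than in Col early without overlap of the arrays, against 3.27% of all probe sets, and IAA11 and ARF19 were lower, against 4.49%. CCA1-34 was higher on each of the 3 days in IAA7, IAA17 and IAA20, against 9.76% of all probe sets, and lower in 6 members, against 13.1%.

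IAA17 (AT1G04250, AXR3), a repressor whose stabilised form makes seedlings insensitive to auxin, was the member that separated the lines at both times. It read 8.33, 8.40 and 8.10 in CCA1-34 late and 8.36, 8.61 and 8.37 in CCA1-34 early arrays, against 7.64, 7.98 and 7.46 in Col late and 7.95, 7.88 and 7.76 in Col early arrays. All 6 arrays of CCA1-34 lay above all 6 arrays of Col, a separation with CCA1-34 higher found in 0.224% of probe sets. CCA1-34 exceeded Col by 0.69, 0.42 and 0.64 at the late time and by 0.41, 0.73 and 0.61 at the early time, on the 5-, 6- and 7-day arrays. The mean difference over both times was 0.58 (SE 0.10, 1.50-fold). The exact two-sided permutation test of this gene alone, over 924 assignments of the 12 arrays, gave p = 0.00216. Any gene whose 6 arrays of CCA1-34 all lie above the 6 of Col gives this p, so it adds nothing to the separation. It was not corrected for the choice of the gene, and the assignments ignored time and day. Across all probe sets the adjusted p by limma was 0.166, or 0.0521 with the day as a block and 0.0249 with array weights, and it ranged to 0.597 over 20 alternatives. The difference was 0.52 and the adjusted p 0.351 without both early arrays that stood apart. Over both times 0 members and 0.022% of probe sets (5, or 16 with the day as a block) passed. IAA17 thus did not pass, although its arrays did not overlap.

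Over both times 8 of 43 members had an unadjusted p under 0.05, IAA1, IAA2, IAA3, IAA5, IAA6, IAA7, IAA17 and IAA19, and all were higher in CCA1-34, against 5.39% of all probe sets in either direction and 2.99% higher. IAA7 (AT3G23050, AXR2), which like IAA17 gives auxin resistance when stabilised, read 9.26, 8.94 and 9.09 in CCA1-34 late and 8.93, 9.31 and 9.25 in CCA1-34 early arrays, against 8.84, 8.49 and 9.01 in Col late and 8.89, 9.0 and 8.57 in Col early arrays. Its difference over both times was 0.33 (SE 0.12), with 0.34 at the early time, and its arrays overlapped. With both early arrays that stood apart left out, IAA7 differed by 0.23 over both times (unadjusted p 0.0986), and the 8 members at an unadjusted p under 0.05, against 5.55% of all probe sets, held IAA29 (1.6, unadjusted p 0.00851) and not IAA7. In the order of genes in RefSeq's TAIR10.1 annotation, IAA17 is separated from IAA3 by 1 gene, IAA7 from IAA2 by 1 gene and IAA14 from IAA1 by 1 gene. With all 12 arrays, in each of the first 2 pairs both genes had an unadjusted p under 0.05 over both times, whereas IAA14 differed by 0.21 with overlapping arrays.

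**Figure D4:**
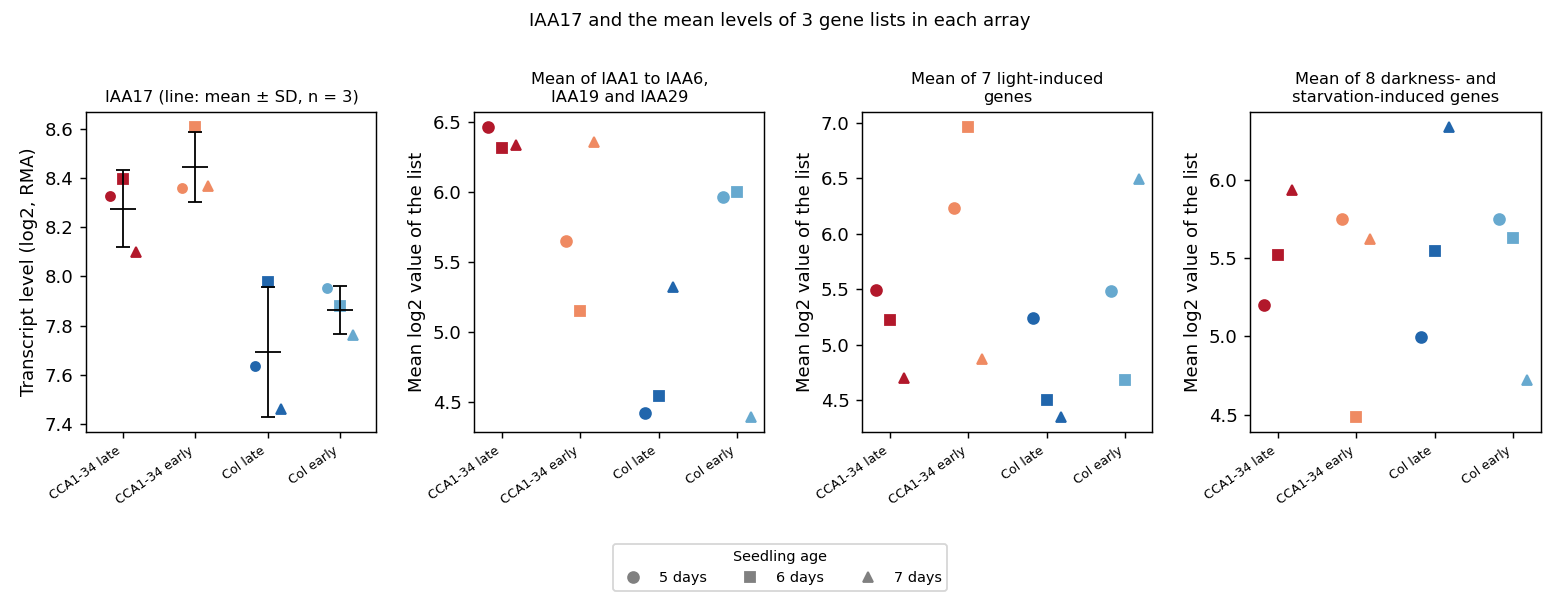
The left panel shows the log2 level of IAA17 in each array by group, with the mean ± SD (n = 3), and the other panels show the mean log2 level of IAA1 to IAA6, IAA19 and IAA29, of 7 light-induced genes and of 8 darkness- and starvation-induced genes. IAA17 lies between 8.10 and 8.61 in CCA1-34 and between 7.46 and 7.98 in Col, and the early arrays with the highest light-induced level (6.96 and 6.50) have the lowest level of their group in the 8 Aux/IAA genes.

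IAA1 to IAA6, IAA19 and IAA29 were put together after their values had been seen, and their mean is given as a description. It was 6.31 to 6.46 in CCA1-34 late, 5.15 to 6.35 in CCA1-34 early, 4.42 to 5.32 in Col late and 4.39 to 6.00 in Col early arrays. The 7-day Col early array was 1.59 below the mean of the other Col early arrays, with 0 of 8 genes above it, and the 6-day CCA1-34 early array was 0.85 below the other CCA1-34 early arrays, with 1 of 8 above. The CCA1-34 late arrays differed by 0.15 at most and the Col early arrays by 1.61. In the 7-day Col late array, 8 of 8 genes were above the other Col late arrays, by 0.84 on average. PIF4 and PIF5 were also highest there among the Col late arrays, with 5.23 against 2.91 and 3.58 for PIF4, and 6.13 against 4.04 and 4.22 for PIF5. For PIF5 only the Col late values are given. The part of PIF4 and PIF5 in the level of these genes was not tested.

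Set against Col late, the 3 growing groups had higher means, all 3 of them, in 20 of 43 members, against 26.8% of all probe sets, and lower means in 5, against 26.3%. In no member did all 9 arrays of the growing groups lie above all Col late arrays, against 0.673% of probe sets. Without both early arrays that stood apart, the remaining 7 arrays lay above Col late in 7 members, IAA1, IAA2, IAA5, IAA6, IAA19, IAA20 and IAA29, against 1.83% of probe sets. The arrays left out were the ones in which most of these genes were low, so this count is a description of the remaining arrays. The 5 members lower in every growing group were IAA8, IAA18, IAA28, IAA31 and ARF5.

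With all 12 arrays and equal weights, seedling age gave the only members past the adjusted threshold. The fit took arrays of the same day as independent, although each age was 1 day of sampling. The p-values for age therefore do not measure the spread between days and may be too small. IAA14 (AT4G14550, SLR), the repressor that holds back lateral root initiation through ARF7 and ARF19, rose with age, from 3.99 through 4.27 to 4.70 in CCA1-34 late, 3.26 through 4.33 to 4.37 in CCA1-34 early, 3.46 through 3.73 to 4.52 in Col late and 3.51 through 3.76 to 4.70 in Col early arrays at 5, 6 and 7 days. The slope was 0.51 per day (SE 0.08, adjusted p 0.0265 by limma), or 1.42-fold per day. ARF2 (AT5G62000), a repressing ARF that limits cell division and promotes senescence, read 7.66, 7.79 and 8.40 in CCA1-34 late, 7.34, 7.57 and 7.79 in CCA1-34 early, 7.58, 7.62 and 8.33 in Col late and 7.41, 7.72 and 8.08 in Col early arrays. Its slope was 0.32 per day (SE 0.05, adjusted p 0.0349), 1.25-fold per day. In both genes the 7-day arrays lay above all 5-day arrays, and each group increased at each step.

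These 2 of 43 members stand against 179 probe sets, 0.787% of all. At an unadjusted p under 0.05 there were 12 of 43, 27.9%, against 16.5% of all probe sets. Of these slopes 9 were positive (20.9%, against 9.21% of all probe sets) and 3 negative (6.98%, against 7.24%), namely IAA20, IAA32 and IAA34. Of 43 members 29 had a positive slope, against 51.3% of all probe sets, or 25 with array medians made equal. The second probe set of ARF2 had a slope of 0.24 (SE 0.11, adjusted p 0.334), and the mean of both 0.28 (adjusted p 0.123). IAA14 passed in 12 of 19 alternatives (adjusted p 0.0124 to 0.110) and ARF2 in 8 of 20 (0.0141 to 0.143). On leaving out 1 array, IAA14 missed the threshold without any of the CCA1-34 late arrays (0.110, 0.0559 and 0.0822 for 5, 6 and 7 days), the 5- or 7-day CCA1-34 early array (0.0847 and 0.0811) or the 5- or 7-day Col early array (0.0827 and 0.0573). ARF2 missed it without the same arrays (0.143, 0.0559, 0.118, 0.0847, 0.0873, 0.100 and 0.0622) and without the 5-day Col late array (0.0576). Without the 5-day Col early array 0 of all probe sets passed, and without the 6-day Col late array 427 did, ARF1 among them. IAA14 passed without both early arrays that stood apart (slope 0.46, adjusted p 0.0253 by limma) and ARF2 did not (0.32, adjusted p 0.0633), while the slope of IAA29 was 0.72 (adjusted p 0.0710), against 0.11 with all arrays (adjusted p 0.949). In that setting 15 members had an unadjusted p under 0.05, against 17.4% of all probe sets. Age and day of sampling cannot be told apart, since each age was 1 day of sampling.

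**Figure D5:**
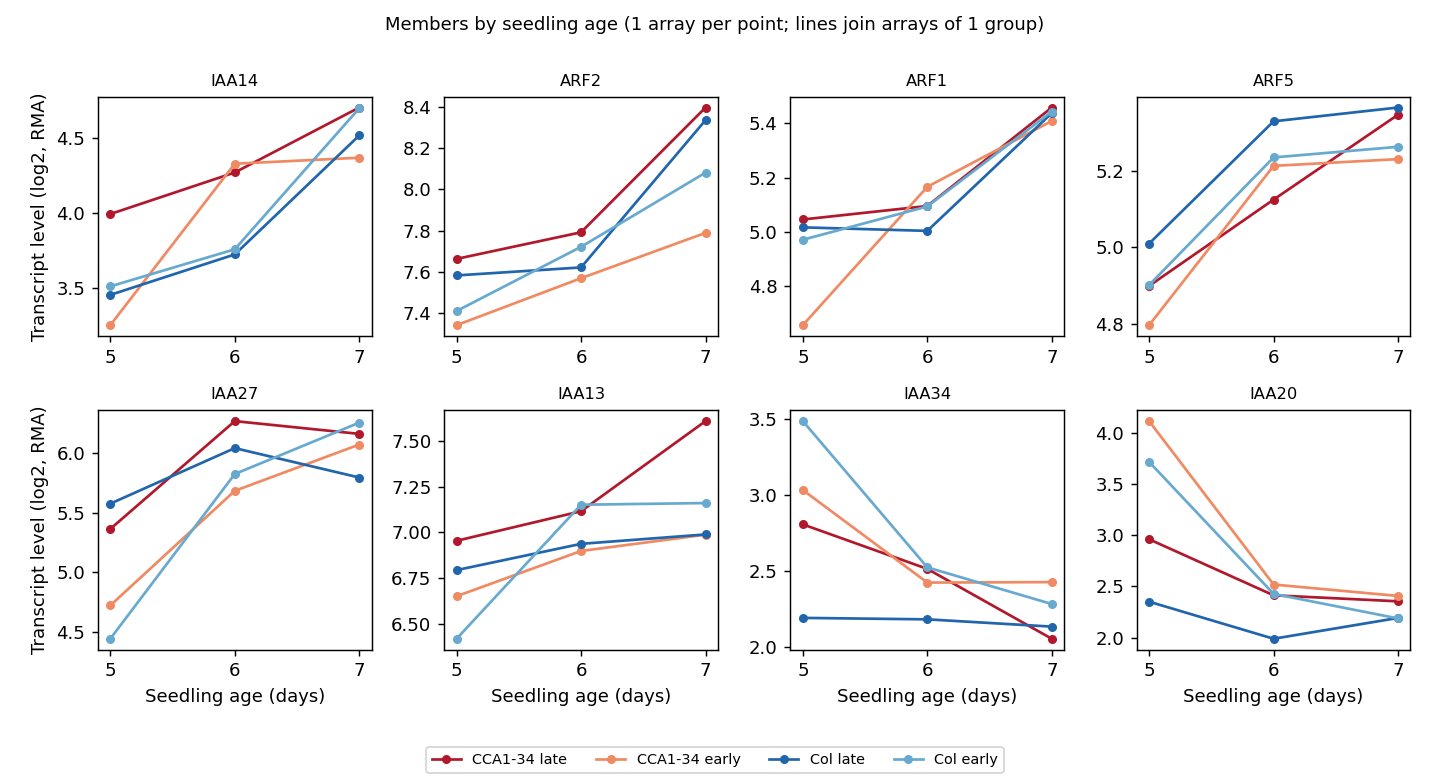
Each panel gives the log2 level of 1 gene at 5, 6 and 7 days, with 1 array per point and a line for each group. IAA14 and ARF2 climb at each step in all 4 groups, with slopes of 0.51 and 0.32 per day, and IAA34 and IAA20 have their high values in the early groups at 5 days.

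No other member passed the adjusted threshold with age in the 12 arrays. ARF1 (AT1G59750), a repressing ARF related to ARF2, read 5.05, 5.10 and 5.46 in CCA1-34 late, 4.66, 5.17 and 5.41 in CCA1-34 early, 5.02, 5.00 and 5.44 in Col late and 4.97, 5.09 and 5.44 in Col early arrays, and its 7-day values spanned only 5.41 to 5.46. Its slope of 0.26 per day had an adjusted p of 0.0515. ARF5 (AT1G19850, MONOPTEROS), the activating ARF of vascular and root formation in the embryo, had a slope of 0.20 (adjusted p 0.0631), IAA27 of 0.52 (0.0866) and IAA13 of 0.24 (0.0954). The 7-day arrays lay above all 5-day arrays in 7 members, IAA13, IAA14, IAA27, ARF1, ARF2, ARF5 and ARF11, against 4.66% of all probe sets. In 12 of 43 members day 7 was higher than day 5 in each of the 4 groups, against 13.1% of all probe sets, and in 2, IAA20 and IAA34, it was lower, against 11.9%. Root markers went the other way: 9 of 10 had a negative slope, and their mean level was 5.53 to 5.81 at 5 days, 5.35 to 5.95 at 6 days and 5.08 to 5.33 at 7 days. Their part in the slope of IAA14, a gene known for its action in roots, was not tested.

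The Aux/IAA genes with an altered or missing degron, IAA20 and IAA30 to IAA34, encode proteins that are less readily degraded in response to auxin, or not at all. They were dim, and some of them shared a high value in the early arrays of 5 days. IAA20 read 2.96, 2.41 and 2.35 in CCA1-34 late and 4.11, 2.52 and 2.41 in CCA1-34 early arrays, against 2.35, 1.99 and 2.19 in Col late and 3.71, 2.43 and 2.19 in Col early arrays. IAA34 read 2.81, 2.52 and 2.06 in CCA1-34 late and 3.04, 2.43 and 2.43 in CCA1-34 early arrays, against 2.19, 2.19 and 2.14 in Col late and 3.49, 2.53 and 2.29 in Col early arrays. IAA32 had 2.59 and 2.49 in the 5-day CCA1-34 and Col early arrays and 1.89 to 2.17 in the others. These were the 3 of 43 members (6.98%) whose 5-day early arrays were above the 10 other arrays, a share close to the 5.14% of all probe sets. The lower quartile of all values was also highest in the 5-day early arrays, at 2.31 in each. The pattern was noticed in the values and not tested. Their slopes with age were -0.50 for IAA20 (adjusted p 0.120), -0.33 for IAA34 (0.103) and -0.14 for IAA32 (0.262). IAA30 read 2.63, 2.33 and 2.59 in CCA1-34 late and 2.47, 2.40 and 2.56 in CCA1-34 early arrays, against 2.35, 2.25 and 2.29 in Col late and 2.47, 2.54 and 2.78 in Col early arrays, where Col late lay below Col early without overlap. IAA33 read 2.14, 2.19 and 2.34 in CCA1-34 early arrays and 2.31, 2.13 and 2.07 in Col early arrays. IAA31 stayed between 1.82 and 2.24 on the 12 arrays.

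The other Aux/IAA genes differed in how far they ranged over the arrays. IAA8 and IAA9 kept within 8.85 to 9.32 and 8.34 to 8.67 on the 12 arrays. IAA12 (BODENLOS), which restrains ARF5 in the embryo, ranged from 4.13 to 5.52, and IAA28, a repressor of lateral root formation, from 3.90 to 5.62, with the 5-day Col early array at the lowest value in both. IAA16 ranged from 7.86 to 8.99, IAA26 from 5.28 to 5.92 and IAA10 from 3.22 to 3.91. With all 12 arrays none of these had an unadjusted p under 0.05 between groups. Col late minus Col early was 0.85 for IAA28 (unadjusted p 0.017) and 0.55 for IAA12 (unadjusted p 0.0435) without both early arrays that stood apart, with adjusted p of 0.527 and 0.668 by limma.

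Among the activating ARFs, ARF5 to ARF8 and ARF19, the range over the 12 arrays went from 0.395 in ARF6 to 1.28 in ARF8. ARF7 (AT5G20730, NPH4), the partner of IAA19 in hypocotyl bending, read 6.57, 6.63 and 6.70 in CCA1-34 late and 6.43, 6.89 and 6.70 in CCA1-34 early arrays, against 6.28, 6.44 and 6.35 in Col late and 6.48, 6.73 and 6.61 in Col early arrays. Col late lay below both Col early and CCA1-34 late without overlap, with differences of -0.25 for Col late minus Col early and 0.28 for CCA1-34 late minus Col late (unadjusted p 0.0657 and 0.0465, adjusted p 0.900 and 1.00 by limma). ARF6, which with ARF8 promotes hypocotyl elongation, read 5.63, 5.83 and 5.81 in Col late arrays, against 5.96, 5.98 and 5.93 in Col early arrays, without overlap. ARF8 ranged from 4.66 in the 7-day Col late array to 5.94 in the 7-day Col early array. The ARFs targeted by miR160, ARF10, ARF16 and ARF17, had lower means late than early in both lines, with differences of -0.27 to -0.02, and with all 12 arrays 0 of 3 had an unadjusted p under 0.05 in any comparison. Late minus early in ARF17, without both early arrays that stood apart, was -0.38 in Col (unadjusted p 0.0399) and -0.37 in CCA1-34 (unadjusted p 0.0470). ARF3 (ETTIN) and ARF4, the targets of trans-acting small RNAs, ranged from 5.23 to 5.75 and from 3.69 to 4.41. In the repressing class (ARF1 to ARF4, ARF9, ARF11 and ARF18), 6 of 7 had a higher mean in CCA1-34 late than in Col late, with a median difference of 0.10, and 0 of 7 had an unadjusted p under 0.05 there. ARF18 had the largest of these differences, at 0.48, with 4.77, 5.27 and 5.46 in CCA1-34 late arrays, against 4.48, 4.39 and 5.19 in Col late arrays, with overlap. In the Col late arrays alone ARF9 ranged from 4.03 to 5.27 and ARF11 from 3.89 to 5.70.

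In the rest of the pathway, 0 genes passed the adjusted threshold in any of the 7 comparisons: 0 of 7 measured receptor and SCF genes, 0 of 3 TOPLESS genes, 0 of 9 auxin carriers and 0 of 2 further ARF genes. The carrier with the lowest p was LAX3, an auxin importer, which read 7.53, 7.80 and 7.41 in CCA1-34 late and 7.35, 7.60 and 7.96 in CCA1-34 early arrays, against 6.74, 7.49 and 6.82 in Col late and 7.08, 7.14 and 7.05 in Col early arrays. It averaged 0.55 higher in CCA1-34 over both times (SE 0.15, unadjusted p 0.00342, adjusted p 0.517). PIN3, an auxin exporter, was 0.69 higher in CCA1-34 late than in Col late (SE 0.29, adjusted p 1.00 by limma). In that comparison LAX3 and PIN3 were the carriers at an unadjusted p under 0.05, 2 of 9, beside 0 of 7 receptor and SCF genes and 0 of 3 TOPLESS genes, against 3.79% of all probe sets. With age, the unadjusted p was under 0.05 for the receptors AFB2 (slope -0.11) and AFB5 (0.11), the corepressor TPR2 (0.15) and the carriers EIR1 (-0.25) and LAX1 (0.19), whose adjusted p lay between 0.113 and 0.267. These 5 of 21 genes stand against 16.5% of all probe sets. The 7 receptor and SCF genes averaged 7.25 to 7.30 in CCA1-34 late and 7.23 to 7.28 in CCA1-34 early, against 7.23 to 7.27 in Col late and 7.17 to 7.25 in Col early arrays.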

How the data were processed

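RNA of 12 whole-seedling samples was labelled and hybridised to 1-colour Affymetrix arrays. The deposited log2 values were made by the authors with RMA, named both in file headers and in the submitters' processing notes. Its version and settings and the genome build are not given in these sources. Of 22810 probe sets, 64 controls were left out. Groups came from titles and ages from the labels. The number of arrays limits the precision. The arrays of a group differ in age and day of sampling, so the spread behind each p-value between groups includes that difference. Separate cultures are not stated, so that spread may not be that of independent cultures.

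All 12 arrays were fitted with limma 3.58.1 in R 4.3.3 (group means or, for age, a slope with group as a factor, eBayes without trend) and adjusted by Benjamini-Hochberg over 22746 probe sets, after a test on simulated data. Members and lists were chosen with earlier results of these data known. Arrays were given for members past the threshold, the 3 lowest p per comparison and the 8 widest ranges of group means, and any member may be named. From other lists up to 2 genes per comparison could be named. Replicate numbers mark days in the labels, so they pair the samples: same-day deviations correlated at -0.32 to 0.51, other-day ones at -0.52 to 0.49. The pairs of groups differed in this. Between CCA1-34 late and Col late, same-day values were 0.23 to 0.51 and other-day values -0.40 to 0.13. Between CCA1-34 early and Col early they were -0.32 to 0.48 and -0.36 to 0.49. Deviations from a group's own mean offset each other, so positive same-day values bring negative other-day values with them. The contrast of same-day and other-day values is thus partly built in. Symbols follow RefSeq's TAIR10.1 table, in which all 44 loci were found.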

Additional observations from a re-analysis of the deposited data

How the results depend on the processing

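Apart from leaving out 1 array, 195 summary values stayed within their range and 45 moved under the alternatives, whereas of the members with the lowest p in each comparison, and at the late time between lines also the widest ranges, 204 values kept their side of the threshold, 4 lost it, 12 gained it and 0 changed direction. Outside that set, between lines early without both early arrays that stood apart, IAA1, IAA2, IAA4, IAA19 and IAA29 turned negative (-0.23 to -0.03). With the replicate block (day), the members at an unadjusted p under 0.05 were 3 for CCA1-34 late minus early, and the probe sets past the threshold 6 for CCA1-34 late minus Col late and 16 for both times. The block changed no member's call. Without both early arrays that stood apart, the probe sets past the threshold were 13 in Col late minus early (1 member, 11 unadjusted), 1 in the interaction (7 members unadjusted) and 30 in CCA1-34 late minus Col late (2 members), the median member difference over both times was 0.084, and 1 member passed with age. With only probe sets above the median mean, where 34 members remain, 2 probe sets passed at the early time between lines and 6 at the late time, and 1 member with age, because IAA14 is below that median. With trend and robust moderation, CCA1-34 late minus early had 2 unadjusted members, 2, 6 and 9 probe sets passed between lines (early, late, both times), and 110 probe sets and 1 member with age. Equal medians gave 2 unadjusted members for CCA1-34 late minus early, 2 probe sets between lines early and 1 member with age, and repeated quantile normalization 2 probe sets between lines early. Array weights moved most: 20 probe sets and 13 unadjusted members in Col late minus early, 2 unadjusted in CCA1-34 late minus early, 10 in the interaction and 2 between lines early, 120 probe sets, 6 members and a median of 0.22 between lines late, 26 probe sets, 1 member and a median of 0.13 over both times, and 1151 probe sets and 7 members with age. The mean of the ARF2 probe sets left 1 member with age. With only the 2 groups compared, unadjusted members were 2 (Col late minus early), 3 (CCA1-34 late minus early) and 2 (lines, early), and 22 probe sets and 1 member passed between lines late. Age as a factor gave 102 probe sets. Except where stated, the cause was not tested.

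On leaving out 1 array, Col late minus early had 0 to 3 probe sets past the threshold and 1 to 10 unadjusted members; CCA1-34 late minus early 0 to 1 and 0 to 3; the interaction 1 to 7 unadjusted members; lines early 1 to 3 and 1 to 3, with a median of -0.047 to 0.089; lines late 1 to 12 and 0 to 1 members, with a median of 0.11 to 0.27; both times a median of 0.030 to 0.089; age 0 to 427 probe sets and 0 to 3 members. Lines late had 12 probe sets without the 7-day Col early array, 4 without the 5-day Col early or the 6- or 7-day CCA1-34 early array, and 1 without any CCA1-34 late, the 5- or 6-day Col late or the 6-day Col early array. The dim genes IAA5, IAA10, IAA20 and IAA30 to IAA34 are limited by low signal.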
